A study of Homo sapiens with 120 samples.

Results

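Cells of the established human B lymphoblast line TK6 were treated with 100 µM formaldehyde for 4 h and set against untreated cells of the same set of experiments at the same time. The comparison uses 6 of the 120 arrays of the series, 3 of treated and 3 of untreated cultures, chosen by their titles, and is described across 14023 tested genes. The series gave formaldehyde (FA) at 50, 100 and 200 µM, and 4 other chemicals at 3 doses each, for 4 h or 24 h, and every chemical had untreated arrays of its own at both times. Formaldehyde at 200 and 50 µM for 4 h, formaldehyde at 100 µM for 24 h with its untreated arrays, and the alkylating agent methyl methanesulfonate (MMS) at 160 µM for 4 h with its untreated arrays serve here as points of comparison. The arrays of each group are numbered as experiments 1 to 3, and nothing in the labels says how far their cultures were grown apart. The p-values below therefore rest on the spread between arrays of a group, which may be technical. For the formaldehyde comparisons that spread was pooled over the groups of all 24 formaldehyde arrays and not taken from the 6 alone.

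Formaldehyde is a small reactive aldehyde that joins proteins to DNA and, less often, the strands of DNA to each other. Cells clear it as an adduct of glutathione, through the dehydrogenase ADH5, and repair its crosslinks through proteolysis, nucleotide excision repair and the Fanconi anemia pathway. A crosslink in a transcribed strand can stop RNA polymerase II, and DNA damage activates the transcription factor p53, which is intact in TK6 cells. Formaldehyde also reacts with thiols and proteins, which are sensed through the heat shock and NRF2 systems.

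Each value is a log2 signal of a probe set, where a difference of 1 is a 2-fold change, and genes count as called below where limma's adjusted p was under 0.05. The untreated array of experiment 3 stood apart from the rest: 256 tested genes lay over 0.5 log2 from the mean of its 2 group mates, against 26 to 59 genes on each of the other 5 arrays. The 3' minus 5' signal of its ACTB control probes was 0.680 log2, against 0.299 to 0.393 on the others, and that of its GAPDH probes was 0.354, against 0.132 to 0.176. Values without it are given where it moves a result. On these 6 arrays, 22 of 27 B cell genes with a probe set of their own averaged over 6.18 log2. That level separates brighter from dimmer probe sets. So did 5 of 6 red blood cell genes, 8 of 13 of epithelium and fibroblasts, 7 of 15 of T and NK cells and 4 of 11 of monocytes and granulocytes. This count alone does not single out B cells. The B cell surface protein gene MS4A1 (CD20) had a mean of 12.17 log2 in treated and 11.88 in untreated cells, while CD14 of monocytes had 5.29 and 5.24 and LYZ, also of myeloid cells, 5.06 and 4.88. On the 3 arrays of a group the B cell markers averaged 8.39 to 8.45 log2 in treated and 8.60 to 8.62 in untreated cells. Of the markers of other cells tested, 1 of 9 of T and NK cells (NKG7), 2 of 4 of monocytes and granulocytes (S100A8 and S100A9) and 1 of 5 of red blood cells (ALAS2) were higher, and none of these 4 was called without the untreated array of experiment 3. Of 9 markers of epithelium and fibroblasts 1 was lower. T and NK cell markers averaged 5.97 to 6.07 log2 on treated and 5.93 to 6.01 on untreated arrays.

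At 4 h, 100 µM formaldehyde changed 5705 genes, which is 40.7% of those tested. In shares of all tested genes, as throughout, 2926 (20.9%) were higher and 2779 (19.8%) were lower than in untreated cells. The falls were the deeper changes: 278 genes (1.98%) were at least 2-fold lower, and 40 (0.285%) were at least 2-fold higher. Without the untreated array of experiment 3, 5194 genes were called, 47.1% of them higher. Without the arrays of experiment 1, 3737 were called, 1605 higher and 2132 lower. The split depended on the scaling, since 71.1% of the calls were higher after each array was centred on its median, against 51.3% as deposited. That centring raised the median change of all genes to 0.14, against 0.04 log2 as deposited. In total RNA of whole cultures, fewer cells of a kind and less RNA per cell cannot be told apart.

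The largest rise on the probe sets used was that of GDF15, a stress cytokine of the TGF-beta family and a p53 target. Its log2 signal was 10.57, 10.41 and 10.74 in treated cells, against 8.30, 8.17 and 8.26 in untreated cells, a change of 2.33 ± 0.13 (SE) or 5.02-fold (limma adjusted p = 1.1e-11). All 3 of its probe sets were higher, by 0.16 to 2.33, and their mean rose by 1.04. The groups did not overlap, nor did they for any other of the 12 largest rises. These genes were chosen by call, direction and size of change on the same arrays, which nearly fixed that outcome. N4BP2L1, a gene of little known function, followed with 10.15, 9.89 and 10.01 in treated cells and 7.64, 7.61 and 7.84 in untreated cells. The stress transcription factor gene ATF3 had 10.54, 10.10 and 10.45 in treated cells, against 8.18, 8.19 and 7.85 in untreated cells, a change of 2.29 ± 0.15. ARRDC3, an arrestin-like adaptor of membrane receptors, was below the dim limit on 1 untreated array and near it on the others, with 8.40, 8.02 and 8.15 in treated cells and 6.22, 6.27 and 5.98 in untreated cells. The high values of all 4 genes were shared by every treated array.

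The other 8 of the 12 rose by 1.46 to 1.81 log2. TNFRSF10D, a decoy receptor for the death ligand TRAIL, rose by 1.81 ± 0.10, and ANKRA2, an ankyrin repeat protein that binds histone deacetylases, by 1.76 ± 0.08. GCNA, a germ cell gene of a family that in worms is tied to DNA-protein crosslinks, had 7.77, 7.28 and 7.46 in treated cells and 6.04, 5.80 and 5.70 in untreated cells, so that all 3 untreated values lay below the dim limit. OGFRL1 rose by 1.62, the antiproliferative gene TOB1 by 1.53, the CDK4-binding transcriptional regulator gene SERTAD1 by 1.53, the zinc finger gene THAP2 by 1.49 and the vesicle fusion gene VAMP1 by 1.46. OGFRL1 and N4BP2L1 each had 1 probe set that differed in sign from the one used, and it was dim in both. As means of their probe sets N4BP2L1, ATF3, TNFRSF10D, OGFRL1, THAP2 and VAMP1 rose by 0.91, 1.26, 1.24, 0.62, 0.91 and 0.94. The mean of the TOB1 probe sets rose by 1.71. HEXIM1, which encodes an inhibitor of the elongation kinase P-TEFb and was picked after its value was seen, rose by 1.22 ± 0.07, with 11.05, 11.10 and 11.06 in treated cells and 9.91, 9.87 and 9.77 in untreated cells. Of its 3 probe sets 2 were higher, the changes ran from -0.29 to 2.53, and the mean of the probe sets rose by 1.16.

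**Figure D1:**
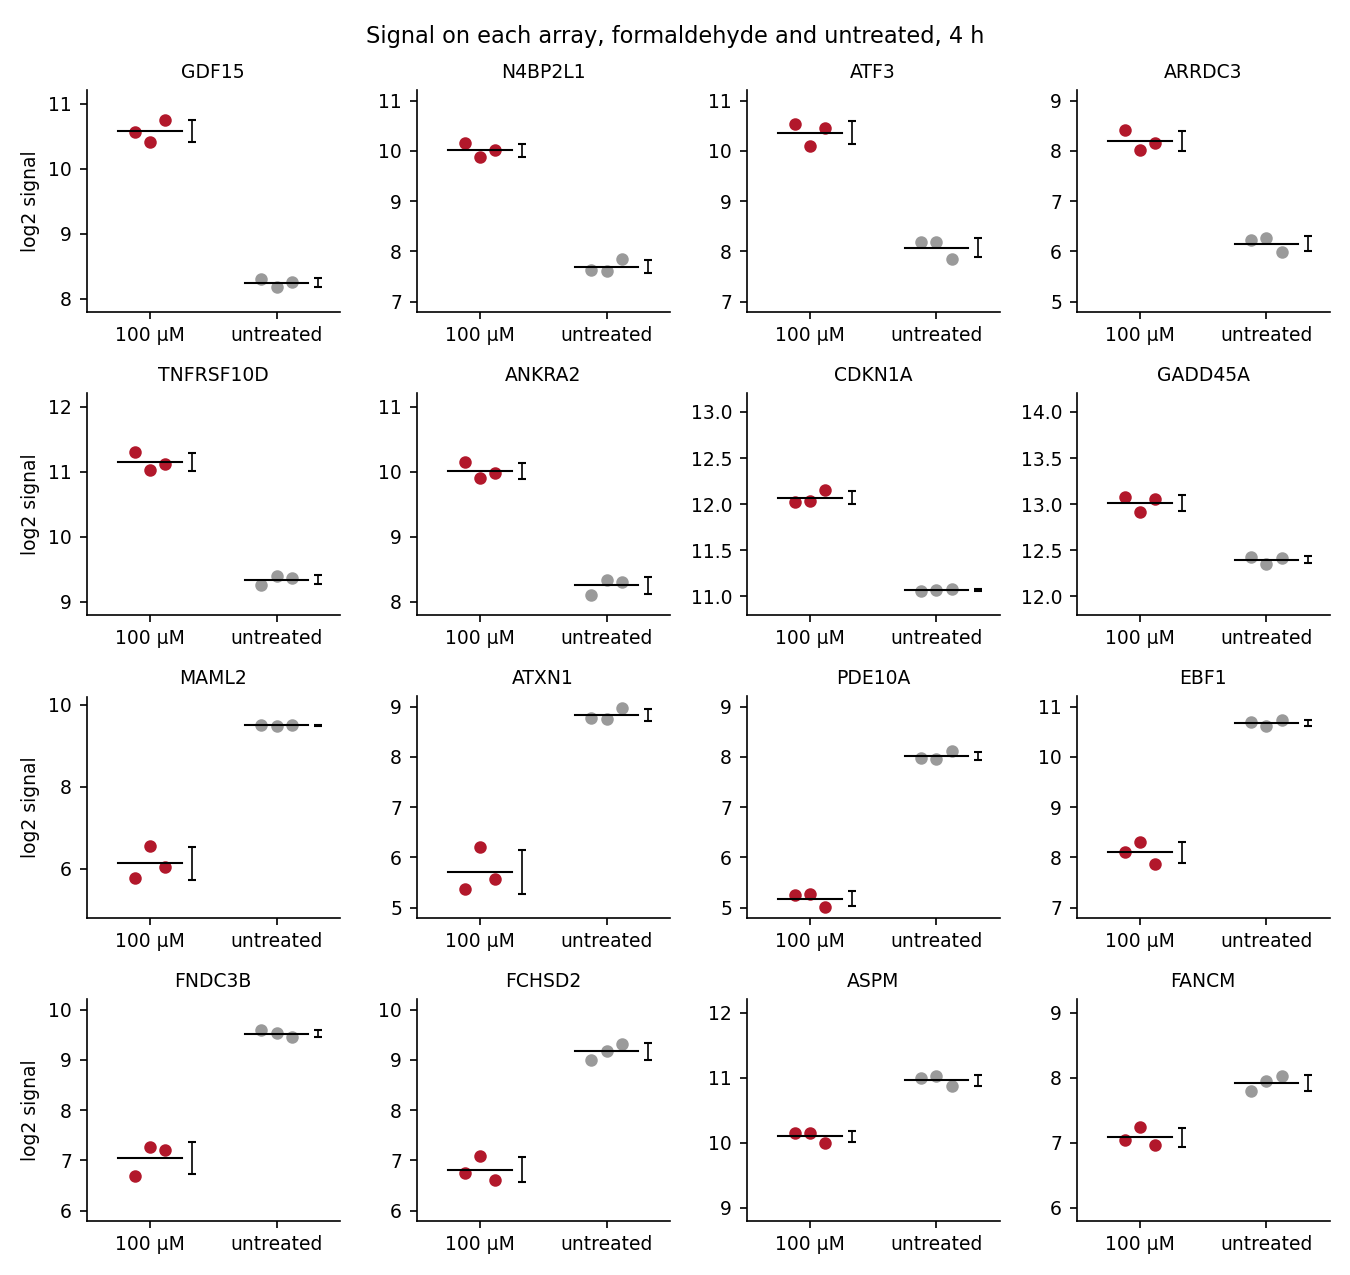
Log2 signal (vertical axes) of 16 genes on each array of 100 µM formaldehyde (red points, left) and of untreated cells (grey points, right) at 4 h, with the mean as a line and the SD (n = 3) as the bar beside it; each axis has its own range. The groups do not overlap for any of these genes, which were chosen by size of change or with earlier results of these data known. GDF15 lies at 10.41 to 10.74 in treated cells against 8.17 to 8.30 in untreated cells, and MAML2 at 5.78 to 6.56 against 9.48 to 9.51.

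Targets of p53 rose as a group. Of 39 tested targets 32 were higher and 2 lower, with a median change of 0.50 log2, against 20.9% higher, 19.8% lower and a median of 0.04 over all tested genes. The counts were the same without the untreated array of experiment 3. PPM1D, the phosphatase that turns p53 signalling off again, had 10.92, 10.84 and 10.83 in treated cells, against 9.67, 9.76 and 8.84 in untreated cells. Its rise was 1.44 ± 0.15, and 1.15 without the untreated array of experiment 3. The stress sensor gene SESN2 rose by 1.40 ± 0.10, with 9.82, 9.80 and 9.92 in treated cells against 8.37, 8.37 and 8.60 in untreated cells. CDKN1A, which encodes the cell cycle inhibitor p21, rose by 1.00 ± 0.06, and the growth arrest gene GADD45A by 0.62 ± 0.05. MDM2, whose product degrades p53, rose by 0.50 ± 0.08 on the probe set used. All 10 of its probe sets were higher, by 0.01 to 2.88, so that its size of change depends on the probe set. The genes of the list are known p53 targets in human cells and were chosen with results of these data known.

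The promoters of these genes were read from RefSeq, 250 bases before to 50 after the start of the gene (GRCh38.p14), and 11162 of the tested genes had one. The p53 core pair was searched on both strands, as 2 core tetramers of C, 2 bases A or T, and G, with 6 bases between them. It stood in 5 of 29 p53 target promoters and in 3.52% of all 11162. The 5 were AEN, GDF15, PGF, RPS27L and TRIAP1, of which all but PGF (-0.02, not called) rose. The median change was 0.23 among these 5 and 0.51 among the 24 without the pair. The match of GDF15, the gene that heads the rises, begins 31 bases downstream of the annotated start, at chr19:18386178-18386207 on the plus strand, and is printed with the motif in capitals.
GDF15: acctgcacagcCATGCCCGGGCAAGaactc

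Genes of the amino acid response driven by the transcription factor ATF4 also rose, 16 of 29 with 5 lower and a median of 0.22. Beside ATF3 and SESN2, CTH, the enzyme that makes cysteine from cystathionine, rose by 1.45 ± 0.09 and the stress factor gene DDIT3 (CHOP) by 1.27 ± 0.12. The CARE motif bound by ATF4, searched as TGATGNAA on both strands, stood in 7 of 24 promoters of that list and in 2.07% of all promoters. The list of the unfolded protein response had 6 higher and 3 lower of 20, shares not far from the 20.9% and 19.8% of all tested genes, with XBP1, its spliced transcription factor, higher by 0.67 ± 0.08 and the sensor kinase gene ERN1 lower by 0.45 log2 on the probe set used. ERN1 was higher by 0.11 as the mean of its probe sets.

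Of 20 tested heat shock genes 9 were higher and none was lower, with a median of 0.11 log2. At an unadjusted p under 0.05 limma likewise gave 9 higher and none lower. Leaving out the untreated array of experiment 3 gave 7 higher, and 1 was lower with quantile normalization repeated. DNAJB4, a cochaperone of HSP70, led it with 8.40, 8.03 and 8.12 in treated cells and 6.84, 6.61 and 6.87 in untreated cells, a change of 1.41 ± 0.09. The small heat shock protein gene HSPB1 rose by 0.35, the endoplasmic reticulum cochaperone gene DNAJB9 by 0.33 and the cochaperone gene DNAJA1 by 0.31, and the groups of DNAJB9 overlapped, with a change of 0.18 that was not called without the untreated array of experiment 3 (limma adjusted p = 0.075). A heat shock element, searched on both strands as the units GAA, TTC and GAA with 2 bases between neighbours, stood in 4 of 19 promoters of the list and in 0.421% of all promoters. DNAJA1 carries one 3 bases downstream of its start, at chr9:33025267-33025296 on the plus strand, shown here with the element in capitals.
DNAJA1: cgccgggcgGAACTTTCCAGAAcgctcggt

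The NRF2 and thiol defence list had 8 genes higher and 1 lower of 19, while 5 genes rose and 2 fell without the untreated array of experiment 3. HMOX1, the heme oxygenase, had 9.06, 8.75 and 9.01 in treated cells, against 8.66, 8.53 and 8.19 in untreated cells, a change of 0.48 ± 0.11 (limma adjusted p = 0.0013). Without the untreated array of experiment 3, which holds the lowest of these values, it was 0.35 (limma adjusted p = 0.014). NQO1, a quinone reductase, rose by 0.26 and the lipid peroxidase gene GPX4 by 0.24, while the glutathione conjugate exporter gene ABCC1 fell by 0.92. The formaldehyde metabolism list, not all of whose enzymes act on formaldehyde itself, had small changes. Of 15 tested, 6 were higher and 2 lower, and ADH5 had 11.22, 11.11 and 11.16 in treated cells and 10.95, 10.997 and 10.92 in untreated cells, a change of 0.21 ± 0.04. The aldehyde dehydrogenase gene ALDH9A1 rose by 0.29, the reductase gene GRHPR by 0.25, and the demethylase genes KDM4A and FTO, whose enzymes release formaldehyde, fell by 0.32 and 0.24 log2. Of 8 metallothionein and zinc genes 3 were higher, led by the zinc exporter gene SLC30A1 at 0.86 ± 0.09.

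Among immediate early genes 15 of 30 were higher and 2 lower. EGR3 rose by 1.28 ± 0.09 and KLF10 by 1.13 ± 0.09. TRIB1, a pseudokinase gene, fell by 0.91 on the probe set used (-0.26 as the mean of its probe sets). A cyclic AMP response element, searched as TGACGTCA on both strands, stood in 2 of 21 promoters of that list and in 3.09% of all. Targets of forkhead factors with arrestin genes had 8 higher and 3 lower of 19. In that list the unusual cyclin gene CCNG2 rose by 0.97 ± 0.14 and the insulin signalling adaptor gene IRS2 by 0.86, and the insulin receptor gene INSR fell by 1.12. TXNIP, an arrestin-fold inhibitor of thioredoxin, rose by 0.48 ± 0.06. Of NF-kappaB targets 10 were higher and 4 lower of 22, with the cytokine gene TNF higher by 0.59 and the receptor adaptor gene TRAF1 lower by 0.42. Regulators of apoptosis had 12 higher and 5 lower of 23: the BH3-only gene PMAIP1 (NOXA) rose by 0.76, the TRAIL receptor gene TNFRSF10B by 0.65 and the survival gene BCL2A1 by 0.44, and BCL2 fell by 0.49 on the probe set used. The mean of the BCL2 probe sets was not called (-0.07, limma adjusted p = 0.19). Of 20 interferon genes 4 were higher and 1 lower, or 5 and 5 with the experiment as a block, and the interferon regulator gene IRF7 had the largest change, 0.97 ± 0.09. The share of interferon genes that rose is near the 20.9% of all tested genes. The shares of NF-kappaB targets and of apoptosis regulators that fell are near the 19.8% of all tested genes.

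**Figure D2:**
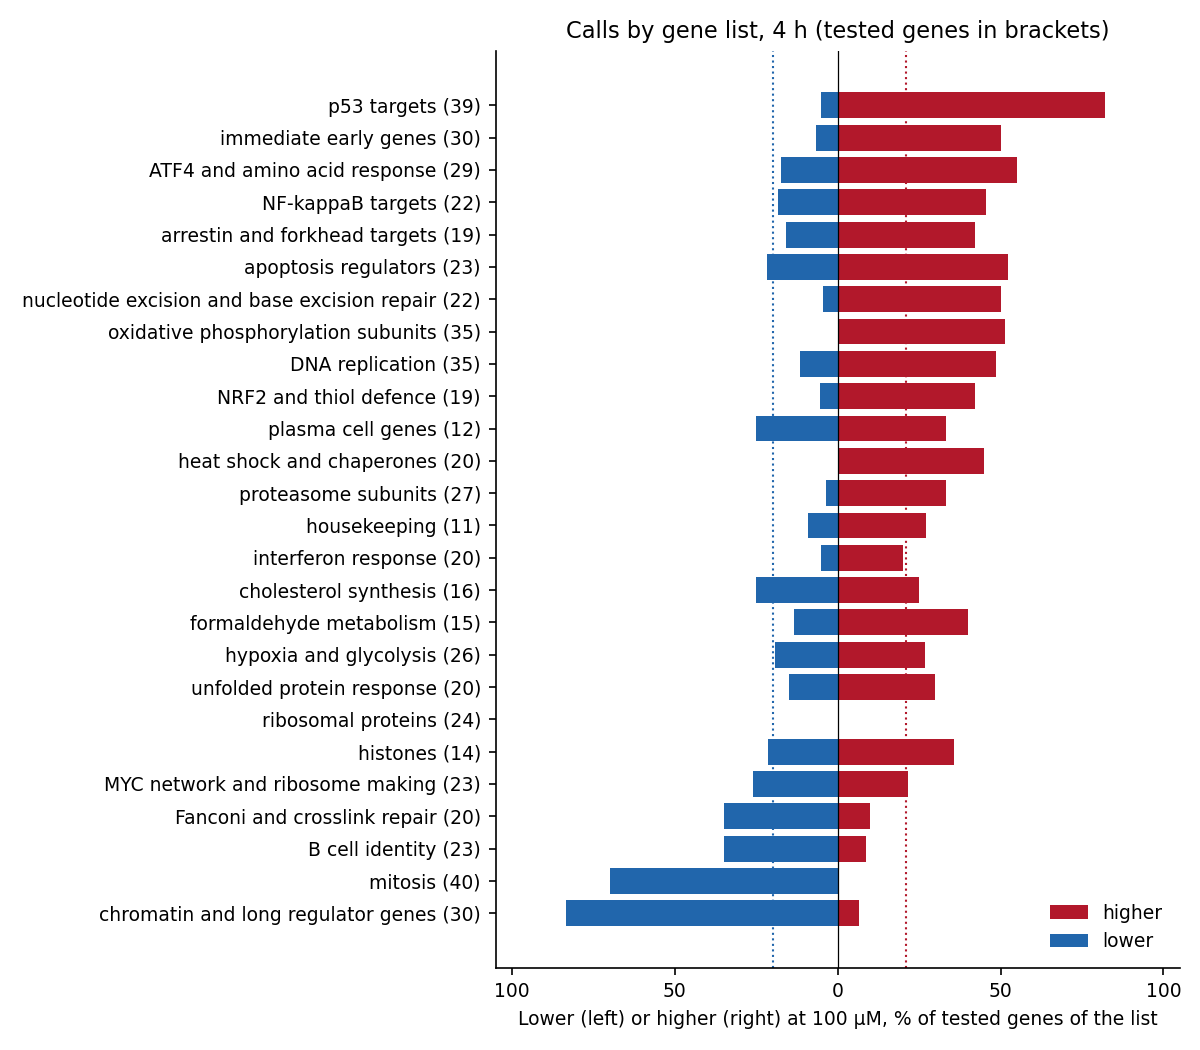
Share of the tested genes of each list (horizontal axis, %) that were lower (blue, left) or higher (red, right) at 100 µM formaldehyde than in untreated cells at 4 h, for lists with at least 10 tested genes, sorted by their median change; dotted lines mark the shares among all tested genes, 19.8% lower and 20.9% higher. The p53 targets have 32 of 39 genes higher, and the chromatin and long regulator genes 25 of 30 lower.

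The deepest falls were those of long genes. MAML2, a coactivator of Notch signalling that spans 367 kb, had 5.78, 6.56 and 6.05 in treated cells, against 9.51, 9.48 and 9.49 in untreated cells, a change of -3.37 ± 0.15 (limma adjusted p = 9.9e-13). ATXN1, a transcriptional regulator gene of 462 kb whose repeat expansion causes spinocerebellar ataxia, had 5.37, 6.20 and 5.57 in treated cells and 8.77, 8.75 and 8.96 in untreated cells. PDE10A, a phosphodiesterase gene of 661 kb, had 5.26, 5.28 and 5.004 in treated cells and 7.97, 7.96 and 8.11 in untreated cells. In these 3 genes the treated values lay around or under the dim limit of 6.18. As means of their probe sets MAML2, ATXN1 and PDE10A changed by -2.11, -1.15 and -0.96, so their size of change depends on the probe set.

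EBF1, a master transcription factor of B cells of 404 kb, fell by 2.58 ± 0.09, with 8.11, 8.31 and 7.88 in treated cells and 10.69, 10.61 and 10.73 in untreated cells. FNDC3B changed by -2.48, the endocytosis gene FCHSD2 by -2.35, the ephrin receptor gene EPHA3 by -2.29 and the RAP1 activator gene RAPGEF2 by -2.29. The small GTPase gene ARL15 changed by -2.16, the zinc finger gene ZNF804A by -2.14, the sphingomyelin synthase gene SGMS1 by -2.12 and the scaffold gene TANC1 by -2.10. All 12 deepest falls span 257 kb or more. Their groups did not overlap, which the choice by call and size of change nearly fixed. Probe sets disagreed for some of them. Lower means were found in 3 of 5 probe sets of ATXN1, 2 of 3 of PDE10A, 5 of 6 of FNDC3B, 4 of 5 of RAPGEF2, 1 of 3 of EPHA3 and 2 of 3 of TANC1, and in each of these genes the probe set used, the brightest over the series, gave the deepest change. The 1 probe set of TANC1 with a mean over the dim limit in these 6 arrays was not lower (0.11). The probe set used had 7.25, 7.17 and 6.96 in untreated cells, over that limit, and 4.89, 5.15 and 5.02 in treated cells, under it. The fall of TANC1 thus depends on the probe set. EPHA3, ARL15 and SGMS1 had no probe set with a mean over the dim limit in these 6 arrays. As means of their probe sets EBF1, FNDC3B, FCHSD2, RAPGEF2 and TANC1 changed by -1.89, -1.18, -1.25, -0.93 and -0.67.

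The median genomic span was 215 kb among the 278 genes at least 2-fold lower, 86.3 kb among all genes that fell, 26.1 kb among all tested genes, 14.3 kb among all that rose and 13.6 kb among the 40 at least 2-fold higher. Of the 278, 250 (89.9%) spanned over 100 kb, against 16.4% of all tested genes, and of the 40 none did, the longest being 96.0 kb. Spans are those of the RefSeq gene, available for 14005 of the 14023 genes. Across these genes, which are not independent replicates, Spearman's rho between change and span was -0.431.

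By length the median of the fitted changes was 0.11 for 1823 genes of up to 5 kb, 0.11 at 5 to 10 kb, 0.10 at 10 to 20 kb, 0.07 at 20 to 40 kb and -0.02 at 40 to 80 kb. Beyond that it was -0.20 for the 1691 genes of 80 to 160 kb, -0.31 for the 812 of 160 to 320 kb and -0.12 for the 400 genes over 320 kb. Taken within experiments 1, 2 and 3, the medians were 0.13, 0.07 and 0.15 up to 5 kb, -0.29, -0.29 and -0.33 at 160 to 320 kb, and -0.16, -0.16 and -0.16 over 320 kb. As deposited, all 3 experiments thus had a positive median in each class up to 40 kb and a negative one in each class beyond it. Centring the arrays raised the changes, so the sign of a median near 0, as at 40 to 80 kb, depends on the scaling. The share of genes that fell was 4.94% up to 5 kb, 55.2% at 160 to 320 kb and 43.0% over 320 kb, and the share that rose was 29.7%, 4.31% and 5.25% in the same classes.

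The tested genes were also split into 3 equal classes of mean signal over the formaldehyde arrays. Over 320 kb the median was 0.01 in the 212 dimmest genes, -0.60 in the 143 of the middle class and -0.43 in the 45 brightest. At 160 to 320 kb it was -0.01, -0.54 and -0.44 in the same order. The dimmest class of long genes thus had medians near 0. For genes over 80 kb together the median was -0.21, and -0.22 once that untreated array of experiment 3 was left out. Over the 7 alternatives tried it ranged from -0.40 to 0.01, the highest value being that of the dimmest class.

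**Figure D3:**
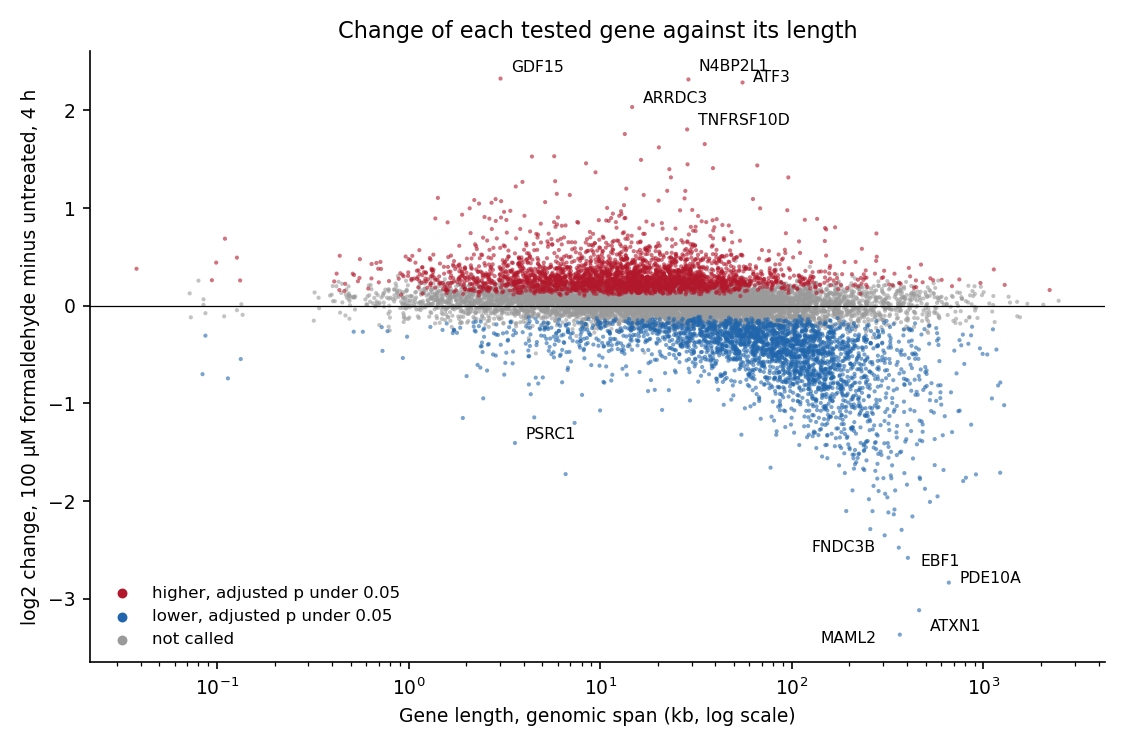
Log2 change at 100 µM formaldehyde against untreated cells at 4 h (vertical axis) for each tested gene against its genomic span (horizontal axis, kb, log scale); red and blue points were called higher and lower, grey points were not called. The rises reach 2.33 log2 among genes under 100 kb, and nearly all falls beyond 1 log2 lie over 100 kb, with PSRC1 at 3.59 kb as one of the exceptions.

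Of the 278 deep falls 6 spanned less than 20 kb, named here after their values were seen. They were the chemokine receptor gene CCR1 (-1.72, 6.60 kb), the mitotic spindle gene PSRC1 (-1.41, 3.59 kb), the zinc finger gene ZIC1 (-1.20, 7.36 kb), the chemokine gene CCL2 (-1.15, 1.92 kb), the germline gene TEX19 (-1.14, 4.53 kb) and the pseudogene USP32P2 (-1.07, 9.99 kb).

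Long regulator genes of chromatin, a list assembled for its length, had 25 of 30 members lower and 2 higher, with a median change of -0.70 log2. On the probe sets used, the nuclear receptor coactivator gene NCOA2 fell by 1.89 ± 0.08, the histone methyltransferase gene KMT2C by 1.77 ± 0.10, the chromatin remodeller gene CHD7 by 1.71 ± 0.12 and the leukemia fusion partner MLLT10 by 1.56 ± 0.11. As means of their probe sets NCOA2, KMT2C, CHD7 and MLLT10 changed by -0.75, -0.90, -0.74 and -0.35, so their size of change depends on the probe set. The 5 members that did not fall had a median span of 128 kb, against 159 kb for the 25 that did. Because the list was chosen for length, its count adds no evidence of its own.

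Among B cell identity genes 8 of 23 were lower and 2 higher, and 7 were lower and 8 higher with centred arrays. The 8 that fell had a median span of 109 kb and the other 15 one of 13.4 kb. Besides EBF1 they include the transcription factor genes IKZF1 (-0.89 ± 0.08), PAX5 (-0.83 ± 0.06) and CIITA (-0.66 ± 0.07), the master regulator of HLA class II genes. As means of their probe sets IKZF1, PAX5 and CIITA changed by -0.42, -0.37 and -0.21. Of 12 plasma cell genes 4 were higher and 3 lower, or 2 and 3 without the untreated array of experiment 3, when SLAMF7 was not called. IRF4 and IGHM fell by 0.38 and 0.36, where the mean of the IGHM probe sets was not called (-0.11, limma adjusted p = 0.13), and SLAMF7 rose by 0.31 beside XBP1. CDH1, the epithelial cadherin gene of 98.2 kb, was the epithelial marker that fell, by 0.87 on the probe set used (-0.34 as the mean of its probe sets).

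Fanconi and crosslink repair genes had 7 lower and 2 higher of 20, and 5 higher with centred arrays. The helicase genes BRIP1 and FANCM fell by 0.91 ± 0.08 and 0.84 ± 0.09. As means of their probe sets BRIP1 and FANCM changed by -0.80 and -0.45. FANCM had 7.04, 7.24 and 6.96 in treated cells, against 7.79, 7.95 and 8.02 in untreated cells. TDP1, which frees trapped topoisomerase, fell by 0.62 and the nuclease scaffold gene SLX4 by 0.58 on the probe set used (-0.18 as the mean of its probe sets, limma adjusted p = 0.051). In excision repair 11 of 22 genes were higher and 1 lower. The damage recognition genes DDB2 and XPC, both also p53 targets, rose by 0.63 ± 0.07 and 0.46 ± 0.07, the scaffold gene XPA by 0.37 and the oxidized guanine glycosylase gene OGG1 by 0.37. Without the untreated array of experiment 3 the rise of XPA was 0.23.

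Genes of mitosis fell together: 28 of 40 were lower and none was higher, with a median of -0.40 log2. At an unadjusted p under 0.05 limma gave 29 lower and none higher, and with centred arrays 25 were lower and 2 higher. PSRC1 fell by 1.41 ± 0.11, the kinetochore motor gene CENPE by 1.24 ± 0.11, the spindle pole gene ASPM by 0.87 ± 0.09, the kinase gene AURKA by 0.86 ± 0.08 and the mitotic cyclin gene CCNB1 by 0.46 ± 0.07. CCNB1 had 11.28, 11.40 and 11.31 in treated cells, against 11.71, 11.93 and 11.75 in untreated cells, so the groups stood apart by less than 0.5 log2. The 28 had a median span of 42.0 kb and the other 12 one of 16.9 kb. Of all tested genes of 40 to 80 kb 26.6% fell.

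Many mitotic promoters hold a cell cycle genes homology region, the element through which the repressor complex DREAM acts on such genes in human cells. Its letters TTTGAA, searched on both strands, stood in 21 of 34 mitosis promoters (61.8%) and in 10.6% of all promoters. Of the 21 genes with it 16 fell, with a median change of -0.45, and of the 13 without it 8 fell, with a median of -0.26. Matches of the 5 motifs overlapped in 1 promoter, between the p53 core pair and CARE. Both of the deepest falls among mitosis genes with the letters are printed, with the match in capitals, 5' to 3' in the direction of the gene, because they show where it sits. In ASPM it is on the opposite strand and reads TTCAAA, 113 bases before the start, at chr1:197146730-197146829 on the minus strand. In BUB1B, a spindle checkpoint kinase gene that fell by 0.82 ± 0.06, it lies 23 bases before the start, at chr15:40160969-40161068 on the plus strand. A match is a description of the letters and not a site of binding.
ASPM: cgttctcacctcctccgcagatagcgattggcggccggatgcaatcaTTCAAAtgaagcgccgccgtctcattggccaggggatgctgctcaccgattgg
BUB1B: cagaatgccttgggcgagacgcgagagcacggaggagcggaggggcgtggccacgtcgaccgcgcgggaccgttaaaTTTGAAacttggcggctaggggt

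Of 35 DNA replication genes 17 were higher and 4 lower. Thymidine kinase TK1 rose by 0.74 ± 0.06, the origin licensing gene CDC6 by 0.74 ± 0.07 and the helicase subunit gene GINS4 by 0.65, while the origin recognition gene ORC2 fell by 0.58. Histone genes had 5 higher and 3 lower of 14, with H2BC21 higher by 0.63 and H1-2 lower by 0.46. MYC did not pass the test: it had 10.90, 11.08 and 10.93 in treated cells, against 11.52, 11.56 and 10.76 in untreated cells (-0.31 ± 0.13, limma adjusted p = 0.072). Without the untreated array of experiment 3, which holds the low value, its change was -0.57 (limma adjusted p = 1.0e-05), and with the experiment as a block the adjusted p was 0.036. In the list of its network and of ribosome making 5 were higher and 6 lower of 23, or 3 and 8 without that array, with its antagonist gene MXD1 higher by 1.18 ± 0.12 and the ribosome assembly gene UTP20 lower by 0.55. The shares of 5 and 6 of 23 are not far from the 20.9% higher and 19.8% lower of all tested genes. The same holds for the share of histone genes that fell.

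For subunits of abundant complexes the counts depended on the scaling and on the arrays in the fit. Oxidative phosphorylation subunits had 18 higher and none lower of 35 (23 and none at an unadjusted p under 0.05 in limma), the largest change being that of SDHD at 0.31. That count was 10 with quantile normalization repeated and 35 with arrays centred on their median. It was 2 with only the 6 arrays of the comparison in the fit, and 6 and 3 without experiments 1 and 3. Proteasome subunits had 9 higher and 1 lower of 27. The counts were 4 and 3 with quantile normalization repeated, 21 and 0 with centred arrays, and 5 and 2 when the untreated array of experiment 3 was left out. Ribosomal proteins had none called of 24 (1 higher at an unadjusted p under 0.05 in limma), and 20 higher with centred arrays. Of 16 cholesterol synthesis genes 4 were higher and 4 lower, HMGCS1 (-0.58) and INSIG1 (-0.44) among the falls. The hypoxia and glycolysis list had 7 higher and 5 lower of 26, with the glycolytic genes PFKFB3 and HK2 lower by 0.75 and 0.70 and the mitophagy gene BNIP3L higher by 0.60. Tubulins had 1 higher (TUBA1A, 0.51) and 2 lower of 9, and housekeeping genes 3 higher and 1 lower of 11. The shares of the cholesterol and hypoxia lists, the share of housekeeping genes that rose and the share of tubulins that fell are not far from the 20.9% higher and 19.8% lower of all tested genes.

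At 24 h the response to the same dose was smaller and mostly upward: 480 genes (3.42%) were higher and 54 (0.385%) lower than in the untreated cells of 24 h. The change at 24 h minus that at 4 h was called for 3730 genes, 2307 (16.5%) higher and 1423 (10.1%) lower. After centring, 28.0% of these calls were higher, against 61.8% as deposited, and the median difference moved to -0.18, against -0.04. Both times have untreated arrays of their own. Of the 278 genes deeply lower at 4 h, 5 were higher, 1 lower and 272 not called at 24 h, with a median change of 0.04. MAML2, the deepest fall, had a change of 0.16 ± 0.15 at 24 h, against -3.37 ± 0.15 at 4 h.

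Of the 40 genes at least 2-fold higher at 4 h, 8 were also higher at 24 h, and none was lower. GDF15 was one of them, with 1.48 ± 0.13 at 24 h against 2.33 ± 0.13 at 4 h. In the p53 list 27 of 39 were higher at 24 h, against 32 at 4 h, and the difference between times was called for 18 of the 39, 6 up and 12 down. Over all tested genes that difference was higher in 16.5% and lower in 10.1%. The share of 6 of 39 up is near the 16.5%. Of mitosis genes 0 of 40 were called at 24 h (3 higher and 1 lower at an unadjusted p under 0.05 in limma), with a median of 0.01, and the difference between times was higher in 28. HMOX1 changed direction, with -1.05 ± 0.11 at 24 h (limma adjusted p = 4.1e-06), against 0.48 at 4 h. Of the 480 genes higher at 24 h, 217 (45.2%) were higher at 4 h too, which is 7.42% of the 2926, and 91 (19.0%) were lower at 4 h. Over all tested genes 20.9% were higher and 19.8% lower at 4 h, so the share of 19.0% is near that of all genes.

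**Figure D4:**
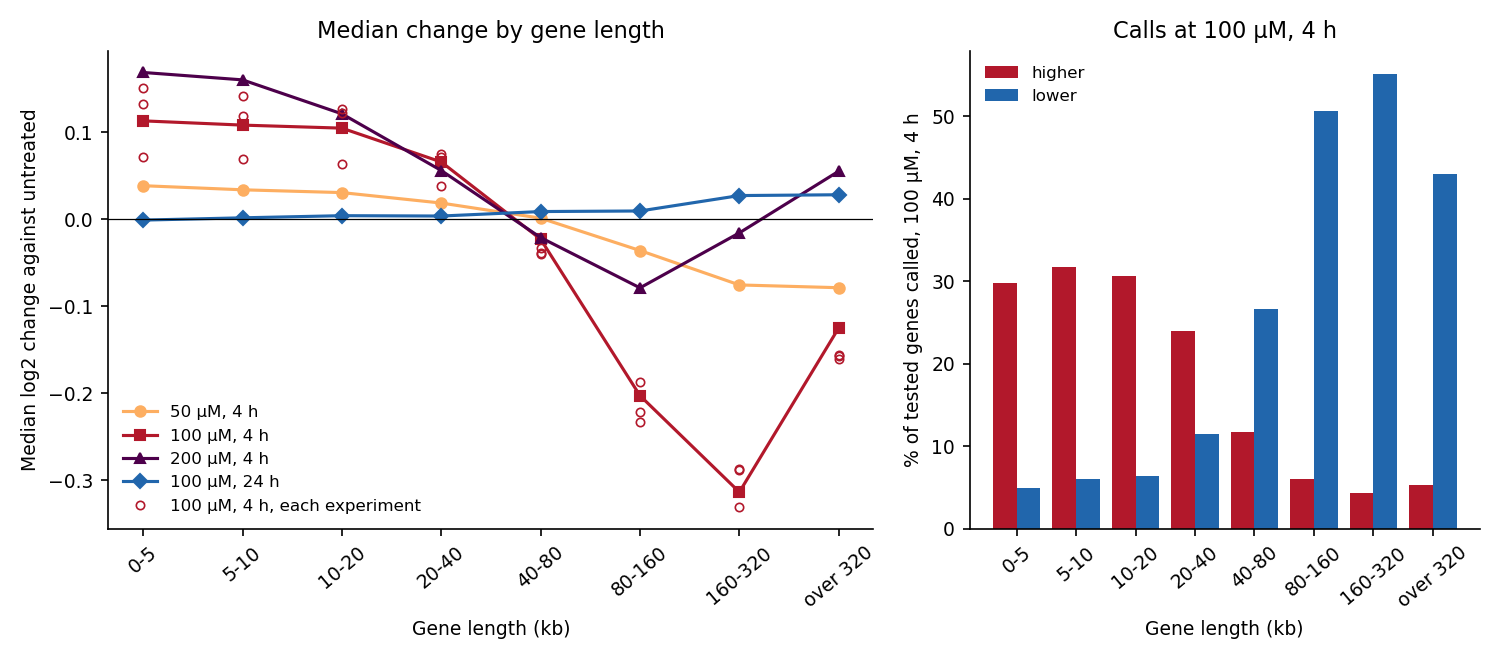
Left, median log2 change against untreated cells (vertical axis) by genomic span of the gene (horizontal axis, kb) for formaldehyde at 50, 100 and 200 µM for 4 h and 100 µM for 24 h; open circles are the medians within each of the 3 experiments at 100 µM and 4 h. Right, share of tested genes called higher (red) and lower (blue) at 100 µM and 4 h. The 100 µM line at 4 h is lowest at 160 to 320 kb, at -0.31, and the line of 24 h stays between 0.00 and 0.03.

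Across the doses at 4 h, which share their untreated arrays, 115 genes were called at 50 µM, 5705 at 100 µM and 7538 at 200 µM. The direct contrast of 200 with 100 µM uses no untreated array. It called 2438 genes (17.4%) higher and 2450 (17.5%) lower, and with centred arrays 65.1% of the calls were higher, against 49.9%. The p53 list was lower at 200 than at 100 µM in 28 of 39 genes and higher in 2, with a median difference of -0.36. PPM1D was at 8.44 ± 0.14 log2 at 200 µM and 10.86 ± 0.05 at 100 µM (SD, n = 3 each), and its changes against untreated cells were 0.56, 1.44 and -0.98 at 50, 100 and 200 µM. Those of GDF15 were 0.65, 2.33 and 1.38, those of MDM2 0.12, 0.50 and -0.96, and those of CDKN1A 0.32, 1.00 and 0.21. These 4 targets had their highest value of the 3 doses at 100 µM, while GADD45A had 0.14, 0.62 and 0.71.

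The lists differed between these doses. Heat shock genes were higher at 200 than at 100 µM in 11 of 20 and lower in none (12 and none at an unadjusted p under 0.05 in limma), and DNAJB4 had changes of 0.05, 1.41 and 2.29 at 50, 100 and 200 µM. By the same contrast 3 of 29 ATF4 genes were higher and 18 lower, 3 of 22 NF-kappaB targets higher and 12 lower, 3 of 23 apoptosis regulators higher and 12 lower, and 5 of 19 arrestin and forkhead targets higher and 6 lower. ATF3 had 0.36, 2.29 and 2.89, ARRDC3 0.46, 2.03 and 3.12, and CCNG2 -0.15, 0.97 and 2.97. GCNA had 0.13, 1.66 and -0.02. Of the 278 deep falls 190 were higher at 200 than at 100 µM and 28 lower. These genes were chosen on the same 100 µM arrays, and the count is a description. MAML2 had -0.34, -3.37 and -1.85 at the 3 doses and EBF1 -0.31, -2.58 and -1.004, while FANCM had -0.11, -0.84 and -1.41. By length the medians over 160 to 320 kb were -0.08, -0.31 and -0.02 at 50, 100 and 200 µM. At 200 µM they were 0.10, -0.15 and -0.14 from the dimmest to the brightest class. Of the chromatin and long regulator list, which was chosen for length and shares members with the 278, 14 of 30 were lower at 200 than at 100 µM and 7 higher. Against the shared untreated arrays 585 genes were at least 2-fold lower at 200 µM and 278 at 100 µM.

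**Figure D5:**
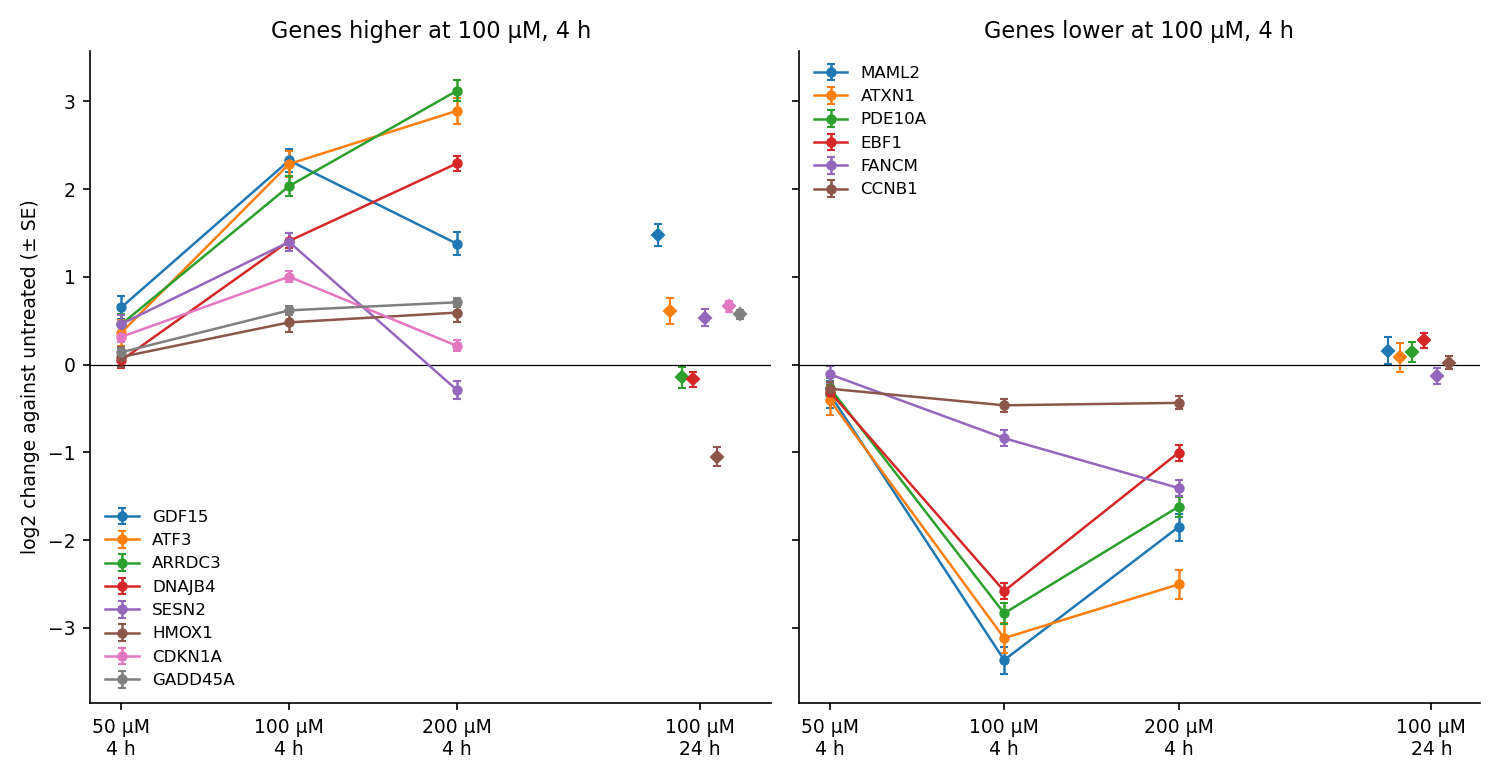
Log2 change against the untreated cells of the same time (vertical axis, ± SE) at 50, 100 and 200 µM formaldehyde for 4 h (circles, joined) and at 100 µM for 24 h (diamonds, spread sideways) for 8 genes higher (left) and 6 lower (right) at 100 µM and 4 h. GDF15, SESN2 and CDKN1A are highest at 100 µM, ARRDC3, ATF3 and DNAJB4 at 200 µM, and the 4 deepest falls are at 0.08 to 0.27 by 24 h.

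The contrast of 100 with 50 µM called 1899 genes (13.5%) higher and 2331 (16.6%) lower, and 65.6% of the calls were higher with centred arrays, against 44.9%. The p53 list was higher in 29 of 39 and lower in 2, and the chromatin and long regulator list lower in 23 of 30. ADH5 was higher at 100 than at 50 µM by 0.16 (limma adjusted p = 0.0092).

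MMS at 160 µM for 4 h, the middle dose of a methylating agent, changed 978 genes (6.97%) upward and 922 (6.57%) downward against its own untreated arrays. The doses of the 2 chemicals differ, and nothing in the labels matches them in effect. Of the 40 genes at least 2-fold higher with formaldehyde 35 were higher with MMS, and of the 278 deep falls 166 were lower and 3 higher, with a median change of -0.27 under MMS. The change under formaldehyde minus that under MMS was called for 3220 genes, 1253 (8.94%) higher and 1967 (14%) lower, and with centred arrays 68.2% of the calls were higher, against 38.9%. Mitosis genes fell under both, 28 of 40 with formaldehyde and 27 of 40 with MMS, and the difference was lower in 10 of them and higher in 1.

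CDKN1A rose by 1.00 ± 0.06 with formaldehyde and 0.92 with MMS, and the difference of 0.08 was not called (limma adjusted p = 0.49). ARRDC3 rose by 2.03 and 0.64, and FANCM had -0.84 and -0.01, and both differences were called. HMOX1 had 0.48 under formaldehyde and 1.61 under MMS, and that difference was called too. Of ATF4 genes 16 of 29 were higher with formaldehyde and 22 with MMS, and the difference was lower in 11 and higher in 4. NF-kappaB targets had 10 higher of 22 with formaldehyde and 1 with MMS, and the difference was higher in 11. Of the Fanconi list the difference was lower in 6 of 20 and higher in 1.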

How the data were processed

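RNA from TK6 cells was measured on the Affymetrix HG-U133 Plus 2 platform, and each group has 3 arrays, per the labels. The authors deposited log2 values, 1 for every probe set, and RMA is the method that the submitters' processing notes name. Its version is not given in the sources used here. Of 54675 probe sets, 41091 named 1 gene symbol in the annotation of the platform and were kept (1801 named several, 11721 none, 62 are controls). For each of 19775 genes the brightest probe set by mean was taken, and 14023 genes with at least 3 of the 120 arrays at or over 6.183 log2, the median of the probe set means, were tested.

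A mean per group was fitted to the 24 formaldehyde arrays in limma 3.58.1 (R 4.3.3, with the data.table package at 1.17.8), and to 48 arrays for the MMS difference, with moderated two-sided tests adjusted by Benjamini and Hochberg within each of the 5 planned comparisons and of the comparisons of other doses, times and MMS with their untreated arrays. On data simulated for 14023 genes, 90% of 100 changes of 0.5 log2 and 99% of 100 changes of 1 log2 were recovered at 100 µM and 4 h, and 5.97% of the calls were false. The simulation used independent normal noise, changed only 100 genes of each size and held no outlying array. Its shares therefore need not hold for the deposited arrays. Tables and figures used python 3.11.15, numpy 2.4.6, pandas 2.3.3 and matplotlib 3.10.9.

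The members, the 32 gene lists and the panel were chosen with earlier results of these data known. Named genes are the 12 largest rises and the 12 largest falls among called genes that moved the same way in all 3 experiments, up to 4 called genes of each list by size of change, and a panel (CDKN1A, MDM2, PPM1D, GDF15, SESN2, GADD45A, ATF3, HMOX1, DNAJB4, ARRDC3, CCNG2, ADH5, FANCM, CCNB1, TXNIP and MYC). Exceptions are named in the text as picked after their values were seen, as were BUB1B, PGF, AEN, RPS27L and TRIAP1 by their motifs. Gene spans and promoters came from RefSeq (GRCh38.p14), and 1 list gene was renamed to its current symbol.

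The labels number the arrays as experiments 1 to 3. The fit above takes no account of these numbers, and the experiment as a block is an alternative. Once the group means were taken off, same-numbered arrays correlated at 0.109, -0.0142 and 0.191 between treated and untreated cells at 4 h, against -0.127 to 0.011 for other numbers. No 2 of the 24 arrays were identical, the highest correlation being 0.998. The number of arrays limits the precision. The alternatives were the experiment as a block, quantile normalization repeated, no filter, a gene's probe sets averaged (12384 genes), arrays centred on their median, fits of only the groups compared or of all 120 arrays, an adjusted p under 0.01, and each array or experiment left out.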

Additional observations from a re-analysis of the deposited data

Results flagged for a closer look

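The change at 100 µM differed between the times for 3730 genes in limma, as a test of the difference itself. Among the genes named for this contrast the difference, 24 h minus 4 h, was below 0 for ARRDC3 (-2.18), N4BP2L1 (-2.03), ATF3 (-1.67), DNAJB4 (-1.58), HMOX1 (-1.53), PPM1D (-0.95), SESN2 (-0.86), GDF15 (-0.85), CCNG2 (-0.57), CDKN1A (-0.34), TXNIP (-0.26) and ADH5 (-0.20). It was above 0 for genes lower at 4 h: MAML2 (3.53), ATXN1 (3.199), PDE10A (2.98), EBF1 (2.86), FANCM (0.71) and CCNB1 (0.49). The contrast contains the 4 h arrays on which the largest rises and falls were chosen. For MAML2, ATXN1, PDE10A, EBF1, N4BP2L1, ARRDC3, ATF3 and GDF15 that choice nearly fixed the sign, and their values are a description. HMOX1 is the one of these 18 genes with a called change in opposite directions at the times.

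The change under formaldehyde differed from that under MMS at 4 h for 3220 genes, again as a tested difference. For the panel it was above 0 for ARRDC3 (1.40), ATF3 (0.73), CCNG2 (0.57), PPM1D (0.51), GDF15 (0.50), SESN2 (0.33), TXNIP (0.32) and GADD45A (0.25), and below 0 for HMOX1 (-1.13) and FANCM (-0.83). Of these, FANCM was the gene whose change under MMS was close to 0, at -0.01.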

How the results depend on the processing

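The count of genes called at 100 µM and 4 h was 5705. It was 6235 with the experiment as a replicate block, 7550 with arrays centred on their median and 4171 with only the groups compared in the fit. Leaving out 1 array or 1 experiment gave 3737 to 5618, the lowest without experiment 1. Dropping the untreated array of experiment 3 from the blocked fit, an alternative chosen after seeing the data, gave 5486. Among named genes the block changed the call of MYC alone. The difference between times gave 5957 with centred arrays and 1969 to 3823 with arrays or experiments left out. The MMS difference gave 4854 with centred arrays, 2081 at an adjusted p under 0.01 and 1511 to 3428 left out, where leaving out experiment 1 gave 1511 and experiment 3 gave 1822. The contrast with 50 µM gave 2217 to 4247 left out, the lowest without experiment 1, and that with 200 µM 3617 to 4476. Fits without an array or an experiment have fewer samples, and the cause of the other shifts was not tested. The shares of higher calls that moved with centring stand beside each comparison. Of 17 lists with 5 or more genes higher at 100 µM, 8 had that count lower by over 1.5 times without experiment 1, 1 without experiment 2 and 9 without experiment 3. Of 133 named genes 100 kept their direction and their side of the threshold in every alternative. ERN1 reversed to 0.11 with the mean of its probe sets, and the median of genes over 80 kb (-0.208) reversed to 0.0139 in the dimmest of 3 equal brightness classes.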
